A study of Mus musculus with 6 samples.

Results

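Lyve1-positive border macrophages were picked out of single-cell RNA-seq libraries of the mouse brain surface and of the tissue attached to the skull. A barcode counted as a member when it had at least 500 detected genes, at most 10% of its unique molecular identifiers (UMIs, 1 per captured RNA molecule) on mitochondrial genes, at least 1 UMI of Lyve1, a UMI of at least 4 of Mrc1, Pf4, F13a1, Cbr2, Ms4a7, Stab1 and Cd163, and a UMI of at most 1 of the microglia genes Tmem119, P2ry12, Siglech and Sall1. This gate kept 508 cells, out of 8804 barcodes that passed the gene and mitochondrial limits and 17560 barcodes deposited. Of these, 489 came from the 4 cortical surface libraries (131, 159, 90 and 109 cells) and 19 from the 2 bone-associated libraries (2 and 17 cells).

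All libraries came from C57BL6 mice with no treatment, and each pooled several adult animals that had not been perfused. The cortical surface libraries (labelled brain) held cells freed from the top of the cortex with its leptomeninges, and the bone-associated libraries (labelled dura and skull) held cells from the connective tissue inside the skull cap. Live nucleated cells (DRAQ5-positive, propidium iodide-negative) were sorted and loaded on the 10x Genomics Chromium platform. Nothing in the labels says whether libraries shared mice, so p-values measure the spread between these libraries.

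Border macrophages live in the meninges and around vessels at the brain surface, outside the brain tissue where microglia are found. They are known for taking up material from the cerebrospinal fluid through scavenger and lectin receptors. A part of them carries LYVE1, a hyaluronan receptor first known from lymphatic vessels, while others carry MHC class II molecules, which present peptides to CD4 T cells.

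Total UMIs were 8408685, 16998497, 55385796 and 56169736 in cortical surface libraries 1 to 4 and 12041325 and 27511208 in bone-associated libraries 1 and 2. Cortical surface libraries 3 and 4 stood apart, since hemoglobin genes took 84.6% and 71.9% of all their UMIs, against at most 0.520% in each of the other 4 libraries. In the members hemoglobin took 17.3% and 13.5% of the UMIs in these libraries, 4.83% in bone-associated library 2 and at most 0.0051% in the other 3. Members of cortical surface libraries 3 and 4 were also shallower, with a median of 5111 and 5395 UMIs per cell, against 13208 and 12202 in cortical surface libraries 1 and 2 and 13771 in bone-associated library 2. Any pair of libraries shared between 0 and 9 barcode sequences, and no barcode was a member in more than 1 library.

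The members were chosen by their UMIs of the gate genes, so the values of those genes are given as a description. Lyve1 stood at 862, 746, 853 and 759 CPM (the gene's UMIs scaled to an equal total per library) in the cortical surface members and at 410 CPM in bone-associated library 2. Its median was 10, 8, 3.5 and 3 UMIs per member in cortical surface libraries 1 to 4 and 3 in bone-associated library 2. Exactly 1 UMI was found in 7.63%, 12.6%, 25.6% and 27.5% of the cortical surface members and in 35.3% (6 of 17) of bone-associated library 2. The chemokine gene Pf4 ran between 4246 and 4996 CPM over the 6 libraries, and Mrc1, the mannose receptor, between 1711 and 4845 CPM. All 7 further markers were detected in 334 members (65.7%). Just inside the limit, 16 members had exactly 4 markers, with a median of 1 Lyve1 UMI and 2315 UMIs in all. Just outside it, 3 barcodes had 3 markers and a median of 2 Lyve1 UMIs. Another 129 barcodes met every other condition but had a UMI of 2 microglia genes.

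Of the microglia genes, P2ry12, a purinergic receptor, gave most of the single detections. It stood at 115, 108, 89.1 and 105 CPM in the cortical surface members and 87.0 CPM in bone-associated library 2, and 322 members (63.4%) had 1 microglia gene. Tmem119, a defining microglia gene, was between 0 and 1.78 CPM in the members of every library. Lyve1 was close to absent from T cells, which should lack it, with a UMI in 1 of 403 cells of the cortical surface libraries (0.248%) and 0 of 488 of the bone-associated libraries. T cells had a median of 6861, 8006, 6282 and 6010 UMIs in cortical surface libraries 1 to 4, below the members in libraries 1 and 2 and above them in libraries 3 and 4.

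Mitochondrial, ribosomal protein and hemoglobin genes were left out of the ranking by abundance. Apoe, which codes for a lipid carrier, then came first in the members, with 36454 ± 3909 CPM (SD, n = 5 libraries with at least 10 members). The hemoglobin gene Hbb-bs stood above it in cortical surface libraries 3 and 4, at 87432 and 63436 CPM, against 34353 and 36851 CPM of Apoe. The nuclear noncoding RNA Malat1 came next at 29771 ± 5306 CPM and the gene model Gm42418 after it at 15898 ± 9263 CPM. The actin-binding peptide gene Tmsb4x stood at 14831 ± 208 CPM, the ferritin heavy chain gene Fth1 at 8496 ± 3654 CPM, the complement gene C1qa at 5827 ± 424 CPM and the protease inhibitor gene Cst3 at 5780 ± 387 CPM. Tmsb4x, C1qa and Cst3 varied little between libraries. Fth1 was highest in bone-associated library 2 (14796 CPM), against 5848 to 8250 CPM in the cortical surface libraries.

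Lyve1-positive macrophages made up a larger share of the cortical surface libraries than of the bone-associated ones. They were 17.6% (exact 95% interval 14.96 to 20.6), 12.7% (10.9 to 14.7), 8.16% (6.61 to 9.93) and 4.86% (4.01 to 5.84) of the kept barcodes in cortical surface libraries 1 to 4. In bone-associated libraries 1 and 2 they were 0.208% (0.0252 to 0.748) and 0.679% (0.396 to 1.09). The groups did not overlap, with means of 10.8% ± 5.55 (SD, n = 4) and 0.444% ± 0.334 (SD, n = 2). The exact permutation test gave p = 0.133 (two-sided), which is the smallest p that 4 against 2 libraries allow. These shares also depend on how many other cells each dissection and sort yielded, and of barcodes with a UMI of the leukocyte gene Ptprc the members were 20.2% ± 15.7 (n = 4) and 0.811% ± 0.578 (n = 2).

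Among all macrophages of the same gate, with Lyve1 set aside, the share with a Lyve1 UMI was higher on the cortical surface too. It was 85.6%, 87.4%, 58.4% and 51.7% in cortical surface libraries 1 to 4, and 14.3% (2 of 14 cells) and 29.3% (17 of 58 cells) in bone-associated libraries 1 and 2. The means were 70.8% ± 18.4 (n = 4) and 21.8% ± 10.6 (n = 2), again with an exact permutation p of 0.133. Cortical surface libraries 3 and 4 were both lower and shallower than libraries 1 and 2. When every barcode was thinned to 2000 UMIs, the shares were 63.3% ± 8.495 (n = 4) and 13.01% ± 0.717 (n = 2), so the spread among the cortical surface libraries narrowed and the 2 groups stayed apart.

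**Figure D1:**
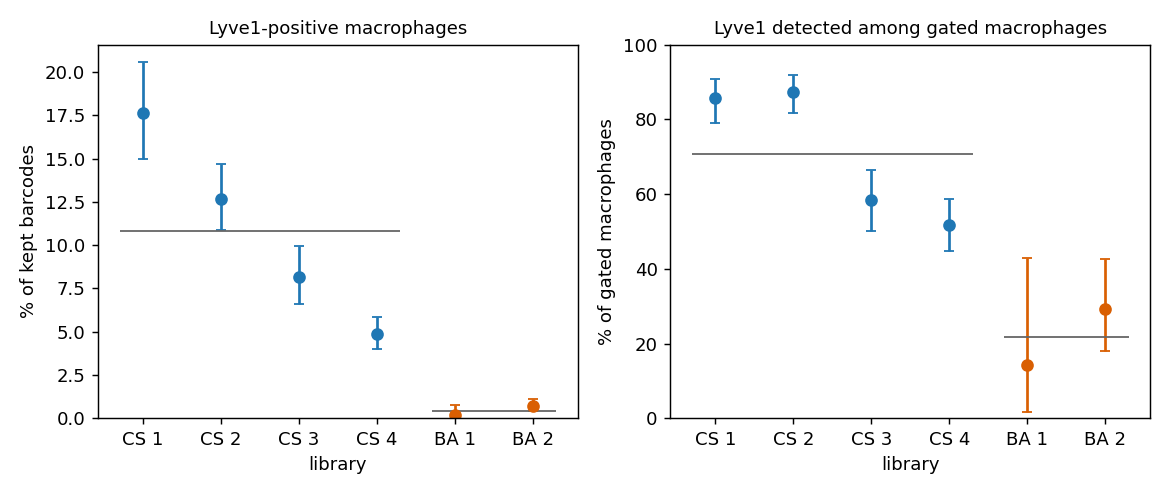
Lyve1-positive macrophages in each of the 6 libraries (x axis; CS, cortical surface; BA, bone-associated). The left panel gives their percent of kept barcodes and the right panel the percent of gated macrophages with a Lyve1 UMI, with exact 95% intervals for counting error only. Bone-associated values (0.208% and 0.679% on the left) lie under all 4 cortical surface values in both panels.

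The next question was what sets these cells apart from macrophages that met the same gate but had no Lyve1 UMI (22, 23, 64 and 102 such cells on the cortical surface, in the order of libraries 1 to 4, and 41 in bone-associated library 2). Counts were summed per library and class, and the 2 classes were compared within libraries (edgeR quasi-likelihood test). A gene was called when its Benjamini-Hochberg adjusted p was under 0.05 and its log2 fold change lay at least 1.3 from 0. Of 7624 genes tested, 36 were called higher with Lyve1 detected (0.472%) and 94 were called higher without it (1.23%), 1.71% in either direction, with the gate genes left out. MHC class II genes were far lower in the Lyve1-positive cells, and a group of lectin and scavenger receptors was higher. The Lyve1-positive cells had the higher median depth in every library (5111 against 2886.5 UMIs in cortical surface library 3, for example).

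All 7 MHC class II genes tested (of 11 listed) were called lower in Lyve1-positive macrophages, with a median log2 fold change of -4.18, against -0.00 over all genes. H2-Aa, an MHC class II alpha chain, stood at 99.2, 11.7, 495 and 281 CPM in the Lyve1-positive cells of cortical surface libraries 1 to 4 and at 4417, 5685, 4545 and 5399 CPM in the cells with no Lyve1 UMI. In bone-associated library 2 it stood at 1077 and 6612 CPM. Of the cells with no Lyve1 UMI, 7 of 22, 13 of 23, 15 of 64 and 38 of 102 held H2-Aa on the cortical surface. In bone-associated library 2, 35 of 41 did. A minority of these cells thus gave the H2-Aa levels of cortical surface libraries 1, 3 and 4. All 5 libraries showed the same direction, with a log2 fold change of -4.60 (SE 0.58, edgeR adjusted p = 8.29e-05). The beta chain gene H2-Eb1 differed by -4.78 (SE 0.65, adjusted p = 0.000154) and the invariant chain gene Cd74 by -4.18 (SE 0.48, adjusted p = 2.58e-05). Cd74 was still present in Lyve1-positive cells, at 328, 127, 1181, 669 and 4001 CPM in cortical surface libraries 1 to 4 and bone-associated library 2. It was found in 60 of 131, 67 of 159, 19 of 90, 29 of 109 and 13 of 17 of these cells, so the levels are not those of a typical member. In T cells of the same libraries, Cd74 had a UMI in 0%, 5.26%, 4.72%, 7.89% and 12.9%. H2-DMa and H2-DMb1, which load peptides, and Ciita, the master regulator of the class, were the other members called, at -3.44, -2.55 and -3.76, beside H2-Ab1 at -4.42.

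The MHC class II level of a cell was then set against its number of Lyve1 UMIs. In the cortical surface libraries, 66 of the 211 gated macrophages with 0 Lyve1 UMIs (31.3%, 25.1 to 38.0) had over 1% of their UMIs on MHC class II genes. Of the 83 cells with a single Lyve1 UMI, 2 did (2.41%, 0.293 to 8.43). Median depth at 1 and 0 Lyve1 UMIs was 3708 and 9936.5 UMIs in cortical surface library 1, 10212.5 and 11866 in library 2, 3082 and 2886.5 in library 3, and 3558.5 and 4136 in library 4. The share was 4.07% at 2 to 4 Lyve1 UMIs, 1.77% at 5 to 9 and 0 of 170 cells at 10 or more. For these last cells the upper limit (exact 95%) was 5.36%, 4.99%, 23.2% and 19.5% in libraries 1 to 4. In single libraries the share was between 23.4% and 43.5% with no Lyve1 UMI, and at most 10.0% (1 of 10 cells of library 1) in any class with one. In the bone-associated libraries 36 of 53 cells with no Lyve1 UMI (67.9%, 53.7 to 80.1) passed the same mark, and 4 of the 17 members of library 2 did (23.5%).

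**Figure D2:**
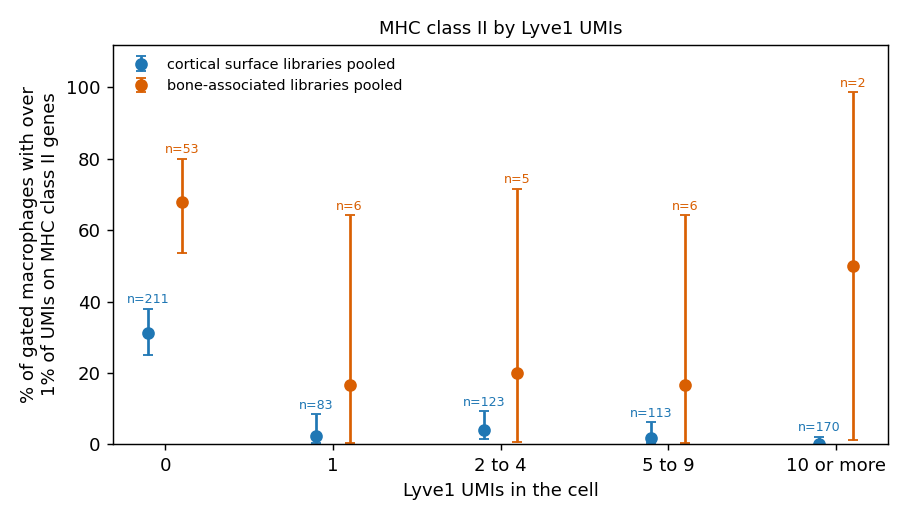
Percent of gated macrophages with over 1% of their UMIs on MHC class II genes (y axis) by the number of Lyve1 UMIs in the cell (x axis), with exact 95% intervals. Over the pooled cortical surface libraries the share was 31.3% at 0 UMIs and at most 4.07% in every class with a Lyve1 UMI, while the bone-associated classes with a Lyve1 UMI hold 2 to 6 cells each and lie between 16.7% and 50%.

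Of 9 genes tested from the list of monocyte-derived and dural macrophage genes, 3 were called lower with Lyve1 and 0 higher (median log2 fold change -0.64), and 2 had a positive fold change. Ccr2, the receptor that brings monocytes into tissue, stood at 9.63, 1.26, 64.2 and 1.44 CPM in the Lyve1-positive cells of cortical surface libraries 1 to 4 and at 0 in bone-associated library 2. In the cells with no Lyve1 UMI it stood at 232, 379, 430, 377 and 120 CPM, and the log2 fold change was -4.95 (SE 0.48, edgeR adjusted p = 5.55e-06). This fold change ran from -6.14 to -4.20 when 1 library was left out. Both classes held little of the other monocyte markers. The whole monocyte list (7 genes, among them Ly6c2, Ccr2, Plac8 and Vcan) summed to between 20.6 and 94.4 CPM in the members and between 129 and 604 CPM in the cells without Lyve1, where Ccr2 was its most abundant gene in every library. Ms4a4c, also of this list, differed by -2.48 but was higher with Lyve1 in 1 of 5 libraries, and the call of Lgals3 (-2.03), a lectin gene, was lost without bone-associated library 2.

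Scavenger and pattern receptors moved the other way. Of 27 tested, 8 were called higher with Lyve1 detected, 0 lower, and 24 had a positive fold change (median 0.86). Of the 8, 4 belonged to the C-type lectin cluster on chromosome 8 (Cd209a, Cd209b, Cd209f and Cd209g), and reads of these near copies may be split in counting. The gate genes Pf4 and Mrc1 were also higher with Lyve1, each by 0.91, although both classes had passed the same marker gate. A fold change near the median of 0.86 was thus not particular to these receptors. Timd4, a receptor for phosphatidylserine on dying cells, stood at 46.7, 56.6, 34.8, 38.8 and 124 CPM with Lyve1 and at 14.8, 4.46, 15.4, 2.04 and 24.3 CPM without it. This gave a log2 fold change of 2.38 (SE 0.35, edgeR adjusted p = 0.000253), with the Lyve1-positive cells higher in 5 of 5 libraries. Fcna, a ficolin that binds bacterial sugars, differed by 2.17 (SE 0.27, adjusted p = 6.19e-05). It stood at 105, 151, 78.8, 89.0 and 208 CPM with Lyve1 and 44.5, 22.3, 34.6, 18.3 and 24.3 CPM without. Cd209f differed by 1.71, the folate receptor gene Folr2 by 1.60 and the collectin gene Colec12 by 1.62. Of 7 markers of the dendritic list, Cd209a made up nearly all of the signal in the members, so that list did not separate dendritic cells here.

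Because the 7 MHC class II genes tested were all called in the same direction, the sequences upstream of their starts are shown with the CCAAT box (CCAAT or its reverse ATTGG, in capitals), a known element of class II promoters. The sequences are from RefSeq (GRCm38.p6), run 5′ to 3′ along the gene's strand, and cover 250 bases before to 50 after the start. They lie at chr17:34287774-34288073 (minus strand) for H2-Aa, chr17:34305617-34305916 (plus) for H2-Eb1 and chr17:34152941-34153240 (plus) for H2-DMb1.
H2-Aa: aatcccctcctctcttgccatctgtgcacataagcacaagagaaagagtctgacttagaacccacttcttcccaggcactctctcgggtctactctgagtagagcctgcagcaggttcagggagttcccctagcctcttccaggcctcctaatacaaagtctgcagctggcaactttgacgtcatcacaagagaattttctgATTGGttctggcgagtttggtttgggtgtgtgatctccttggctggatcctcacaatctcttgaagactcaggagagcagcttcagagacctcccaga
H2-Eb1: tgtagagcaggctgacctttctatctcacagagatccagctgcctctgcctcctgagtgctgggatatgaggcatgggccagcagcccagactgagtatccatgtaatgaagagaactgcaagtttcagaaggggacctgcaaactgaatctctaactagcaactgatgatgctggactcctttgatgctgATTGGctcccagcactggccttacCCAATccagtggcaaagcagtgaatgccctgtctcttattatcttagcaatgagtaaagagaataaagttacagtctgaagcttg
H2-DMb1: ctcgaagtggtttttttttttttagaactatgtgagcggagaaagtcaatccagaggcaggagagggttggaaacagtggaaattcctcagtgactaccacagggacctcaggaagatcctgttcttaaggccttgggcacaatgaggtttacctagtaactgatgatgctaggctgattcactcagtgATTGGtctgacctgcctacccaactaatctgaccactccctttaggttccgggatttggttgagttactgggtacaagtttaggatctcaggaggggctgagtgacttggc

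Of the 6 called class II genes that were searched, 4 were in the table, with 5 starts, and 4 of the 5 windows held the letters CCAAT on 1 strand or the other, as did 37.4% of 32851 promoters of the same length. In the receptor group, 7 of 8 genes were in the table, with 8 starts. The letters TGCTGA (or TCAGCA), which begin the element bound by MAF factors, were found in 5 of the 8 windows, against 19.5% of all promoters. AGGAAG (or CTTCCT), the core bound by PU.1, was found in 5 of the 8, against 35.4%. The windows of Fcna at chr2:25627925-25628224 (minus strand) and Timd4 at chr11:46810549-46810848 (plus) each held TGCTGA or its reverse at 2 places, in capitals here.
Fcna: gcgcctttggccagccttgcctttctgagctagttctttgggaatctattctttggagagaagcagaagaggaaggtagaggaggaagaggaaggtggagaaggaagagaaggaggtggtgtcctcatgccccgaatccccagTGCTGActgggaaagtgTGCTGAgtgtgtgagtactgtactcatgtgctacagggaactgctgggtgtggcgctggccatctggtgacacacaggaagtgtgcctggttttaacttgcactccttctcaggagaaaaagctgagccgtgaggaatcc
Timd4: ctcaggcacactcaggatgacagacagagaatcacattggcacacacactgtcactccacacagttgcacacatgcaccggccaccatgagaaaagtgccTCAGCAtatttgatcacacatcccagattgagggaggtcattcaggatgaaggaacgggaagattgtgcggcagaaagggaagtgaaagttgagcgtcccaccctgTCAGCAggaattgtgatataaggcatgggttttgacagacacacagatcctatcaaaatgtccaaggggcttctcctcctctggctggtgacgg

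These matches are a description of letters and were not tested as sites. In H2-Eb1 the first CCAAT match shares its first base with a TGCTGA match.

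Soluble factors differed gene by gene. Of 13 chemokine ligands tested, 2 were called higher with Lyve1 and 1 lower. Ccl24, which attracts eosinophils, stood at 525, 536, 594, 556 and 839 CPM with Lyve1 and at 198, 228, 138, 169 and 312 CPM without it (log2 fold change 1.57, SE 0.16, edgeR adjusted p = 6.49e-06). Within each class its level varied little between the cortical surface libraries. Ccl7, which attracts monocytes, varied far more, at 788, 1320, 370, 725 and 4628 CPM with Lyve1 and 218, 89.2, 76.8, 26.5 and 3118 CPM without it (2.45, SE 0.39, adjusted p = 0.000523). Cxcl16 was lower with Lyve1, by -1.52, but was not called without cortical surface library 2 (-1.23). Among cytokines and growth factors 1 of 18 was called higher (Bmp2, 1.32) and 2 lower. The lower ones were the inflammatory cytokine gene Il1b at -3.47 (-4.11 to -2.66 when 1 library was left out) and Pdgfb at -1.42. Il1b was at 0 in both classes of cortical surface library 3 and at 2780 CPM in the Lyve1-negative cells of bone-associated library 2. The calls of Bmp2 and Pdgfb were lost without bone-associated library 2 (log2 fold changes of 1.299 and -1.28 there, just under the fold limit), and that of Bmp2 also without cortical surface library 3 or 4.

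Of 13 complement genes 3 were called higher with Lyve1 and 0 lower, namely the decay inhibitor Cd55 (1.70), the classical component C2 (1.46) and properdin, Cfp (1.32, close to the fold limit and not called without cortical surface library 2, 3 or 4). The iron exporter ferroportin, Slc40a1, was the called member of 16 iron and heme genes. It stood at 357, 210, 233, 215 and 336 CPM with Lyve1 and 168, 62.5, 111, 65.2 and 126 CPM without it (1.39, SE 0.17, edgeR adjusted p = 4.69e-05). Angptl7 had the highest positive fold change of any named gene (2.49, SE 0.61, adjusted p = 0.0186), from 92 UMIs against 4, and was not called without cortical surface library 3 or 4.

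All growth factor receptors and transcription factors called in this comparison were lower with Lyve1. Axl, a receptor that takes part in clearing dying cells, stood at 12.5, 19.7, 29.3, 8.62 and 102 CPM with Lyve1 and at 98.9, 183, 92.1, 128 and 154 CPM without it (-2.42, SE 0.34, edgeR adjusted p = 0.00018). The TGF-beta family receptors Tgfbr1 (-1.58) and Acvrl1 (-1.62) were the others called of 26 tested. Of 26 transcription factors 2 were called, both lower, Runx3 (-3.01, or -3.99 to -2.34 when 1 library was left out) among them. Maf, the most abundant of these factors in the members, differed by 0.45 and was not called (adjusted p = 0.0652). None of 12 heat shock, 15 interferon-induced, 19 lysosome, 14 lipid or 5 cell cycle genes was called, and 1 of 22 immediate-early genes was (Dusp2, -1.52). Dusp2 and the hyaluronan receptor gene Cd44 (-1.75) were each higher with Lyve1 in 1 of 5 libraries and lost their calls when other libraries were left out.

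**Figure D3:**
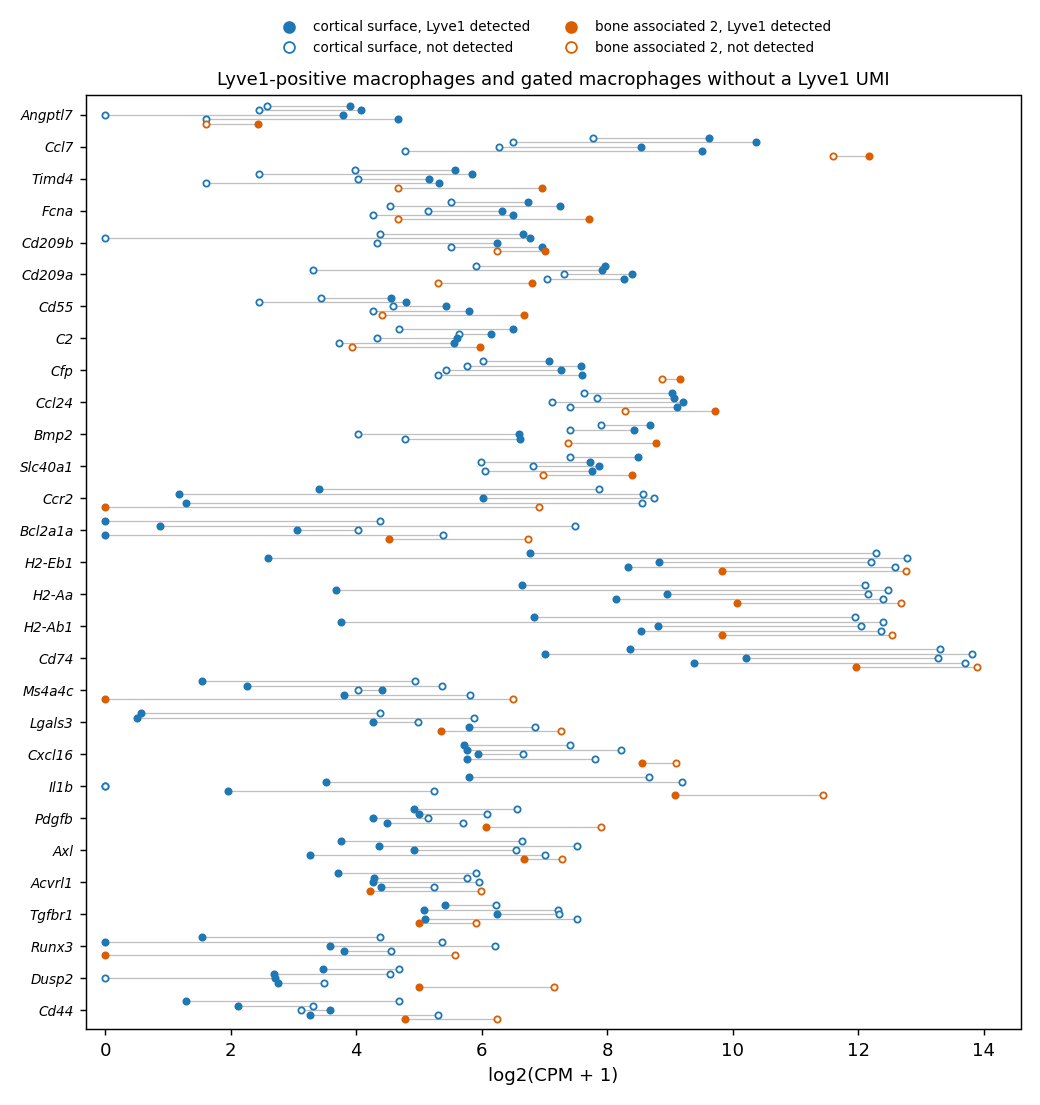
Named genes of the Lyve1 comparison, as log2(CPM + 1) in each library (x axis), 1 line per library joining gated macrophages with (filled) and without (open) a Lyve1 UMI, in cortical surface libraries 1 to 4 (blue) and bone-associated library 2 (orange). H2-Aa and its relatives lie far to the right without Lyve1, with 4417 to 6612 CPM for H2-Aa, while Ccl24 and Fcna lie to the right with it.

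Fewer calls were made when every barcode was thinned to 2000 UMIs before the gate was applied, which also changes which cells count as Lyve1-positive and which genes are tested. Then 0 genes were called higher with Lyve1 and 12 lower, and 51 of the 130 genes called before in either direction were still tested, with 51 of 51 keeping their sign. H2-Eb1 (edgeR adjusted p = 6.5e-15) and H2-Aa (adjusted p = 3.78e-13) were among those called, and 5 MHC class II genes in all. Fcna fell to 1.18 (adjusted p = 0.0687) and Ccl7 to 0.95, below the fold limit (adjusted p = 0.00276). For the receptor group no call was detectable at 2000 UMIs per barcode.

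The difference between Lyve1-positive and Lyve1-negative cells was also compared between the cortical surface libraries and bone-associated library 2. That single library was assumed to vary like the others, so the spread came from the cortical surface alone and the test says nothing of bone-associated preparations in general. Of 7624 genes, 3 were called (0.0393%, edgeR interaction test), Cyr61 and Emilin2 among them. Cyr61, a matricellular protein gene, was at 405, 303, 302 and 210 CPM with Lyve1 in cortical surface libraries 1 to 4 and at 39.6, 35.7, 23.0 and 4.07 CPM without. In bone-associated library 2 it was at 0 with Lyve1 and at 58.8 CPM without, all of it from 1 of 41 cells (adjusted p = 0.00179). Emilin2 ran opposite, at 2.87 to 6.29 CPM with Lyve1 and 15.4 to 40.2 CPM without on the cortical surface, and at 110 and 10.1 CPM in bone-associated library 2 (adjusted p = 0.00591).

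Lyve1-positive macrophages were then compared between preparations. Bone-associated library 1 had 2 members and was left out of the fit, so the 4 cortical surface libraries were set against bone-associated library 2 alone (17 cells), with that lone library assumed to vary like the others. Dissection and tissue go together here and cannot be told apart. Fold changes are cortical surface over bone-associated. Of 8597 genes tested, 4 were called higher in the cortical surface cells (0.0465%) and 72 higher in the bone-associated cells (0.838%), 0.884% in either direction. With cells thinned to 2000 UMIs, 69 of these 76 genes could be tested and 1 of the 4 and 1 of the 72 were still called. DESeq2 called 2 of the 4 and 70 of the 72, the fit without cortical surface library 2 called 2 and 35, a fit of all 6 libraries 4 and 48, and the gate with at least 2 Lyve1 UMIs 2 and 37. All 76 were called with cortical surface libraries 1 and 2 only, with libraries 3 and 4 only and with hemoglobin genes left out.

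The 4 genes higher on the cortical surface were Cyr61, Ptgds, Adam33 and Dusp6. Cyr61 stood at 433, 322, 321 and 226 CPM in cortical surface libraries 1 to 4 and had no UMI in any of the 19 bone-associated members. Against a floor of 3 counts in bone-associated library 2 it was at least 16.98-fold higher in each cortical surface library (edgeR adjusted p = 0.00662), and 44.0% of the cortical surface members had a UMI of it. Few T cells did, with a UMI in 1, 0, 0 and 0 T cells of those libraries. Adam33, a membrane metalloprotease gene, stood at 118, 97.5, 125 and 119 CPM against 17.6 CPM (2.69, SE 0.45, adjusted p = 0.0333). Dusp6, an inhibitor of ERK signaling, stood at 134, 125, 165 and 150 CPM against 30.7 CPM (2.21, SE 0.40, adjusted p = 0.0452). Dusp6 was not called when any 1 cortical surface library was left out, and Adam33 not without library 1, 2 or 4.

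Ptgds, the prostaglandin D synthase gene that leptomeningeal fibroblasts express strongly, stood at 1767, 3255, 1292 and 1054 CPM against 35.1 CPM (5.71, SE 0.85, edgeR adjusted p = 0.0247, not called without cortical surface library 1). It was found in other cells of the same libraries, with a UMI in 62.1%, 63.2%, 7.09% and 7.46% of T cells on the cortical surface and in 0.8% and 0.826% in the bone-associated libraries. The leptomeningeal fibroblast list (Ptgds, Gjb2, Gjb6, Slc22a6, Lama1 and Ranbp3l) summed to 1997, 3573, 1244 and 1010 CPM in the cortical surface members and to 0 and 33.1 CPM in the bone-associated ones, and Ptgds was its most abundant gene in each library with a UMI. With the barcodes most like simulated doublets left out, the genes called between preparations, Ptgds among them, kept the sign of their fold change. Some of these genes lost their call, and the sign was kept under every other alternative too, wherever they were tested. The part of free RNA in the Ptgds value, and the size of any doublet part, were not tested.

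Chemokine receptor and ligand genes were among those higher in the bone-associated cells. Of 6 chemokine receptors tested 2 were called, both higher there, Cxcr4 among them. Cxcr4, the CXCL12 receptor gene, stood at 8.23, 8.46, 13.6 and 10.9 CPM in the cortical surface members and at 110 CPM in bone-associated library 2 (log2 fold change -3.52, SE 0.40, edgeR adjusted p = 0.00809). Among 15 chemokine ligands, 4 were called, all higher in the bone-associated cells, and 14 of 15 had a negative fold change (median -2.43, against 0.07 over all genes). Cxcl16 stood at 55.0, 57.0, 64.2 and 57.4 CPM against 373 CPM (-2.68, SE 0.23, adjusted p = 0.00353). Ccl6 stood at 48.3, 60.6, 40.9 and 46.5 CPM against 338 CPM (-2.75, SE 0.27, adjusted p = 0.00512). Cxcl10, the interferon-induced chemokine gene, differed by -5.18, but 3 cells held all of its UMIs in bone-associated library 2 and 1 cell held 72.0% of them. Ccl7 (-2.43, adjusted p = 0.064) and Ccl2 (-2.57, adjusted p = 0.087) had like fold changes and did not pass.

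Other genes called higher in the bone-associated cells came from several lists or from none of them. Nfkbia, the NF-kappaB inhibitor gene, stood at 418, 242, 290 and 189 CPM against 1278 CPM (-2.16, SE 0.36, edgeR adjusted p = 0.0343). Icam1, an adhesion molecule gene, stood at 24.2, 14.7, 3.89 and 29.5 CPM against 290 CPM, with a UMI in 15 of 17 cells (-3.94, SE 0.50, adjusted p = 0.0124). The anti-apoptotic gene Birc3 (-2.77), the glycolysis regulator Pfkfb3 (-3.77) and the calcineurin regulator Rcan1 (-3.38) moved the same way. Gdf15, a stress-induced TGF-beta family member, ranged from 1.55 to 52.9 CPM on the cortical surface and stood at 1296 CPM in bone-associated library 2, with 9 of 17 cells holding a UMI (-5.61, SE 0.87, adjusted p = 0.0261). Spp1, the osteopontin gene, rested on 3 cells, of which 1 held 95% of its UMIs. The calls of Nfkbia, Gdf15 and Spp1 were lost without cortical surface library 2, and their log2 fold changes over the fits that left out 1 library ran from -2.41 to -2.01, from -6.31 to -5.31 and from -4.52 to -3.79.

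Of 27 transcription factors, Irf8, a regulator of myeloid cells, was called. It stood at 214, 193, 146 and 160 CPM on the cortical surface and 602 CPM in bone-associated library 2, with a UMI in 17 of 17 cells (-1.75, SE 0.27, edgeR adjusted p = 0.0276). This call was lost without cortical surface library 2 (-1.85 to -1.67 when 1 library was left out). Batf, a partner of IRF factors that was called outside the lists, stood at 30.3, 32.5, 27.3 and 7.75 CPM against 325 CPM, in 15 of 17 cells (-3.64, SE 0.45, adjusted p = 0.0117). Bone-associated library 1, outside the fit, held some of these genes and lacked others. Its 2 members held 20 UMIs of Batf (510 CPM), 36 of Irf8 (918 CPM), 52 of Rcan1 (1326 CPM) and 20 of Nfkbia (510 CPM). They held 0 of Cxcr4, Ccl9, Cd209g, Pdgfa, Il17ra, Spp1 and Mmp9, and 1 UMI of Isg15 (25.5 CPM).

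The remaining lists held few calls. No MHC class II gene of 6 tested was called, and all 6 had a negative fold change (median -1.96), and Cd74 stood at 379, 141, 1147 and 673 CPM against 3753 CPM (-2.70, SE 0.77, edgeR adjusted p = 0.17). Of 28 scavenger and pattern receptors, 1 was called, the lectin gene Cd209g, at 185, 186, 189 and 177 CPM against 589 CPM (-1.68, SE 0.23, adjusted p = 0.0178). Its UMIs came from 8 of the 17 cells, with 41% in 1 of them, and the 2 members of bone-associated library 1 had 0. Elsewhere, 1 of 15 complement genes (Cfp, -1.68), 3 of 23 cytokines and growth factors, 2 of 23 immediate-early genes (Nr4a3, -4.32, and Nfkbia), 1 of 18 interferon-induced genes (Isg15, -2.09), 2 of 15 lipid genes (Plin2, -2.24, and Pltp, -1.60) and 1 of 17 iron genes (Slc11a2, -2.55) were called, all higher in the bone-associated cells. Of these, the calls of Cfp, Nr4a3, Isg15, Plin2, Pltp and all 3 cytokines and growth factors (Pdgfa, Gdf15 and Spp1) were lost when 1 cortical surface library or another was left out, with negative fold changes in each fit. None of 12 heat shock, 19 lysosome or 6 cell cycle genes was called. All 17 lists had 0 genes called higher on the cortical surface.

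**Figure D4:**
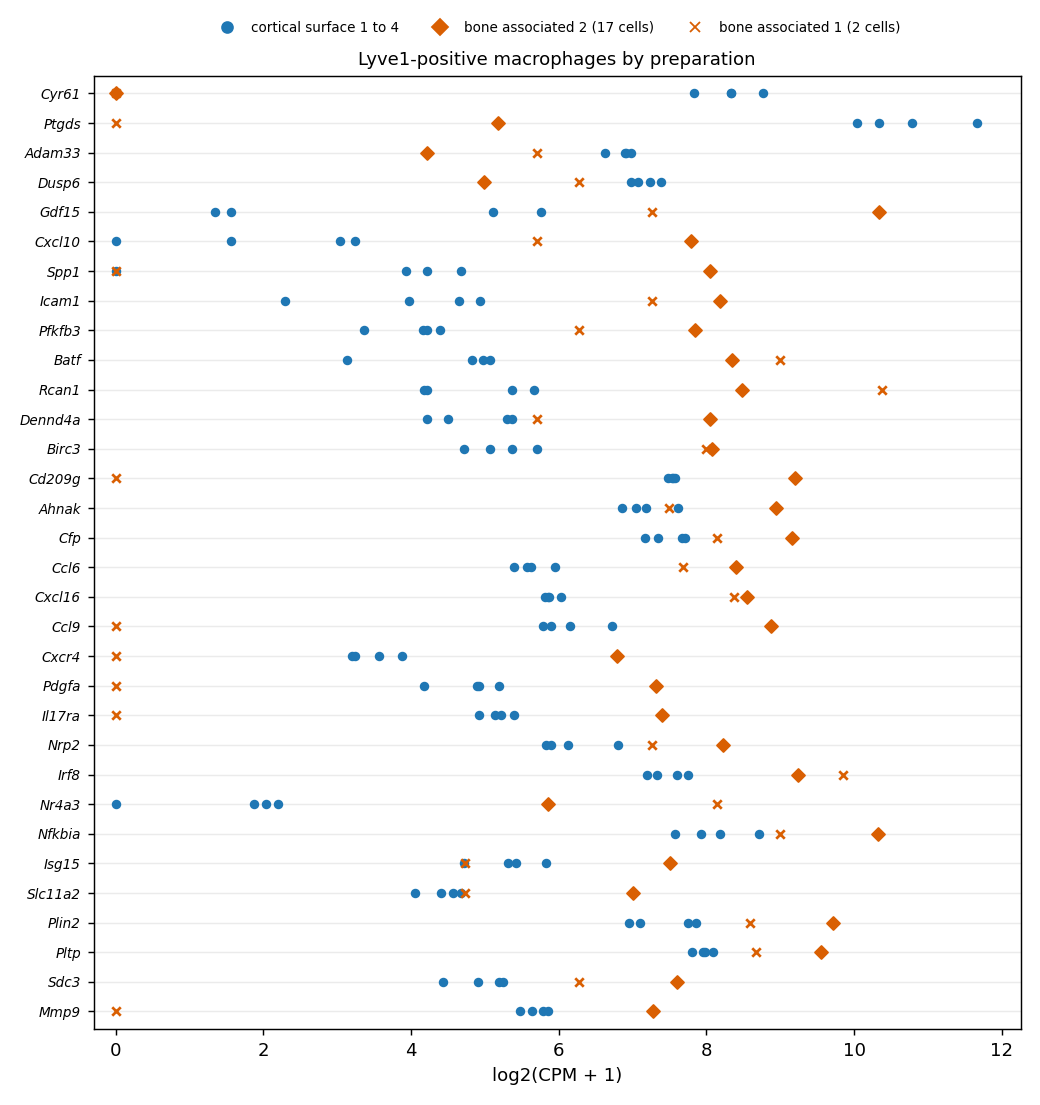
Named genes of the comparison between preparations, as log2(CPM + 1) (x axis), in the members of cortical surface libraries 1 to 4 (blue circles), bone-associated library 2 (diamonds, 17 cells) and bone-associated library 1 (crosses, 2 cells, outside the fit and not scaled with it). Cyr61 is at 0 in both bone-associated libraries, while Icam1, Batf and Irf8 lie to the right of all cortical surface points in bone-associated library 2.

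Both bone-associated libraries entered when cells of the same gate were used whether or not they had a Lyve1 UMI (14 and 58 cells). Batf then stood at 8.72 to 33.0 CPM on the cortical surface and at 248 and 272 CPM in the bone-associated libraries, Icam1 at 13.8 to 30.9 CPM and at 232 and 306 CPM, and Cxcl16 at 68.0 to 117 CPM and at 427 and 447 CPM. Cyr61 stood at 117 to 427 CPM and at 0 and 36.6 CPM. For Cxcl10, Spp1, Cd209g and Nrp2 the 2 groups overlapped in these cells, as for Cd209g with 15.8 CPM in bone-associated library 1 and 363 CPM in library 2. The largest changes had been named for lacking overlap in the members, which are part of these cells. In the members alone, 64.1% of all 8597 genes tested did not overlap. The share over all genes in the wider set of cells is not given here. Since these cells include many without Lyve1, and their share differs between preparations, the values mix both kinds.

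Markers of other cell types differed between the members of the libraries. The mural cell list summed to 1517, 3114, 255 and 292 CPM in cortical surface libraries 1 to 4 and to 25.5 and 20.7 CPM in the bone-associated libraries, led by Acta2 or Rgs5. The choroid plexus list summed to 2630 CPM in cortical surface library 4, almost all of it Ttr (2360 CPM), and to at most 95.3 CPM in the other libraries. The T or NK cell list reached 198 CPM in cortical surface library 4 and at most 4.18 CPM elsewhere, and the B cell list summed to 70.7, 80.8, 358 and 260.1 CPM on the cortical surface and to 561 and 278 CPM in the bone-associated libraries. The endothelial list ran between 307 and 491 CPM on the cortical surface against 102 and 133 CPM, the astrocyte list between 56.4 and 578 CPM against 25.5 and 33.1 CPM, and the dural fibroblast list between 2.23 and 12.5 CPM against 102 and 29.0 CPM. Of the B cell genes, Ighm was the most abundant except in cortical surface library 3, where Igkc was (194 CPM). Ighm also had a UMI in 56.5%, 66.7%, 64.2% and 64.2% of microglia in cortical surface libraries 1 to 4, so it was not particular to B cells here. Egfl7, the most abundant endothelial list gene by mean, stood at 206, 238, 246 and 244 CPM in the members of these libraries. It was higher with Lyve1 by 1.01. The neutrophil list was highest in bone-associated library 2 (236 CPM, led by Mmp9 at 145 CPM). Mmp9 was among the genes called higher in the bone-associated cells (-1.59, edgeR adjusted p = 0.0477, lost when any 1 cortical surface library was left out). Barcodes most like simulated doublets numbered 3, 4, 5 and 9 of the cortical surface members and 0 of the bone-associated ones. With these doublet-like barcodes left out, the members were 10.5% ± 5.58 (n = 4) and 0.451% ± 0.342 (n = 2) of kept barcodes. The genes called between preparations kept the sign of their fold change, but some lost their call. The comparison by Lyve1 detection then gave 42 genes higher and 97 lower, and that with microglia 651 and 564. The part of other cell types in the results was not tested.

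Microglia, the macrophages of the brain tissue itself, gave a second reference within the cortical surface libraries (46, 126, 159 and 394 cells with at least 3 microglia genes, no Lyve1 UMI and at most 1 of the 7 markers). Fold changes are Lyve1-positive macrophages over microglia in the same library. Of 7920 genes, 650 were called higher in the Lyve1-positive cells (8.21%) and 553 higher in microglia (6.98%), 15.2% in either direction, again without the gate genes.

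Several genes that the gate did not use were nearly absent from microglia. The lectin genes Cd209f and Clec10a stood at 900 ± 91.2 and 637 ± 56.4 CPM in the Lyve1-positive cells (SD, n = 4), against 3 and 2 UMIs in all microglia together. Cd209g stood at 198 ± 6.26 CPM and was at least 288-fold higher, since no microglia had a UMI. The phospholipase gene Pla2g2d stood at 162 ± 19.7 CPM (at least 225-fold higher) and the chemokine gene Ccl8 at 176 ± 100 CPM (at least 134-fold higher), both with 0 UMIs in microglia. These bounds set the lowest of the 4 libraries against a floor of 3 counts over the whole other group. Of 26 scavenger and pattern receptors, 20 were called higher and 1 lower (median 6.19, against 0.01 over all genes). The endocytic adaptor gene Dab2 (7.18), Cd36 (7.80) and Folr2 (8.60) were among those called higher.

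Genes of secreted factors differed in both directions. Of 17 cytokines and growth factors, 4 were called higher in the Lyve1-positive cells and 4 higher in microglia (median 0.10). Apoe stood at 40697 ± 3075 CPM against 1132 ± 1035 CPM (log2 fold change 5.56, SE 0.40, edgeR adjusted p = 1.97e-06), higher in 4 of 4 libraries. The growth factor gene Igf1 stood at 357, 292, 321 and 338 CPM against 25.6, 0.964, 0 and 0 CPM (7.14). Its log2 fold change ran from 6.11 to 10.1 when 1 library was left out. Gas6, a ligand of the AXL receptor, stood at 768 ± 74.3 CPM against 95.5 ± 23.9 CPM (3.01). The complement genes Cfp (7.17) and C4b (5.99, or 5.11 to 7.84 when 1 library was left out) were higher. In all, 6 of 13 complement genes were called higher and 2 lower. C1qa, which both cell types express, differed by -0.22 and was not called. Of 13 chemokine ligands, 7 were called higher and 1 lower.

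Of 12 interferon-induced genes 9 were called higher, among them Bst2 (752 ± 72.6 against 127 ± 27.8 CPM, 2.57), and 0 lower. Iron and heme genes gave 7 of 16 higher, with the biliverdin reductase gene Blvrb at 3.19, and 0 lower. Immediate-early genes, which also respond to dissociation, gave 8 of 21 higher and 0 lower, with Fos at 1.85, whereas 0 of 12 heat shock genes were called.

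Genes higher in microglia included the fractalkine receptor gene Cx3cr1, at 352 ± 86.6 CPM in the Lyve1-positive cells against 4598 ± 919 CPM (-3.72), and the lipid sensor gene Trem2 at 394 ± 83.8 against 2055 ± 355 CPM (-2.39). Kcnk12, a potassium channel gene, had 0 UMIs in the Lyve1-positive cells and 44.5 ± 12.8 CPM in microglia, at least 53.5-fold higher there by the same floor. Irf8 was lower in the Lyve1-positive cells (-1.41). Of 5 MHC class II genes, Cd74 was called higher (661 ± 527 against 47.4 ± 18.7 CPM, 3.51) and 3 lower, H2-DMa among them at -2.39. The Cd74 level rested on few members, since over 1% of the UMIs were on MHC class II genes in 1, 0, 4 and 4 members of cortical surface libraries 1 to 4. The median member had between 0 and 0.0108% of its UMIs on these genes and the median microglia between 0.0351% and 0.0411%. H2-DMa was thus lower in Lyve1-positive macrophages than in either reference.

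**Figure D5:**
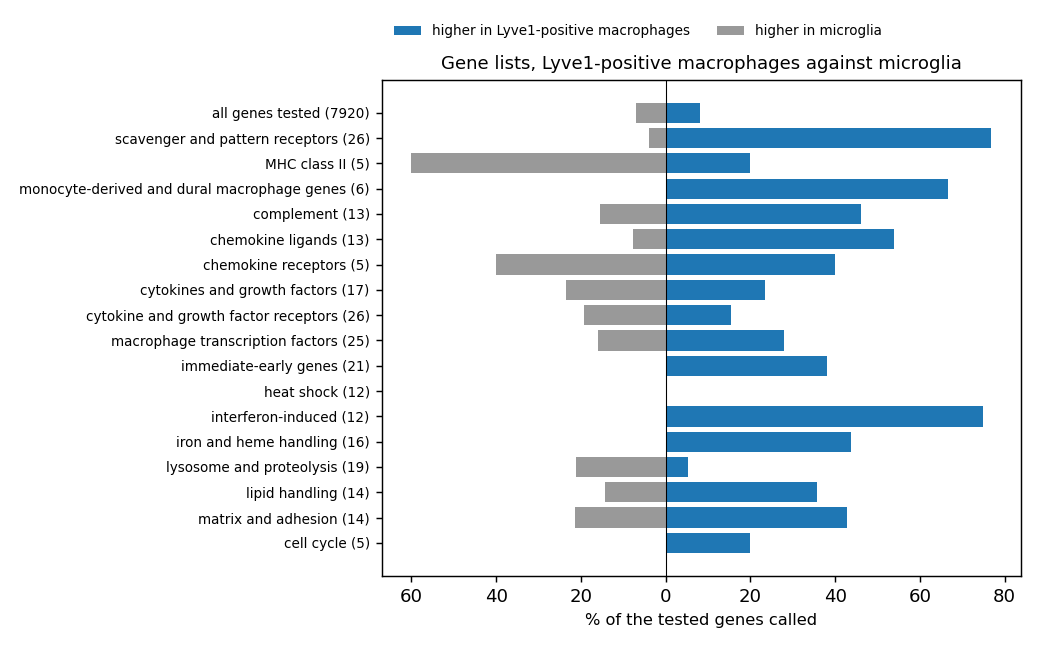
Percent of the tested genes of each list (number tested in brackets) that were called higher in Lyve1-positive macrophages (to the right) or in microglia (to the left). Scavenger and pattern receptors had 20 of 26 genes to the right, against 8.21% of all genes tested.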

How the data were processed

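Single-cell RNA-seq had been run on 6 mouse libraries. The authors deposited gene by barcode count matrices (whole UMI counts, not normalized), made with Cell Ranger against mm10. The submitters' notes give Cell Ranger version 3 and the matrix headers 6.1.2. The labels describe papain digestion of another brain region and the study's methods collagenase and dispase, so which enzyme was used is uncertain.

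Here, barcodes were gated as described, with no batch correction, and counts were summed per library and class. Libraries with under 10 cells of a class were left out. Sums were tested with edgeR 4.0.16 (R 4.3.3, TMM, quasi-likelihood) over genes detected in more than 10% of the cells in 1 of the 2 groups. Calls needed an adjusted p (Benjamini-Hochberg) under 0.05, and a log2 fold change no closer to 0 than 1.3. The fold limit and the 10% limit follow the study's methods, which used Bonferroni adjustment instead. The 12 gate genes were left out of all counts of calls. CPM given with a fold change are TMM-scaled within that comparison, except those of Cd74 between preparations. The Cd74 values there and all other CPM are of all UMIs of the cells, so they differ a little. Shares carry exact 95% binomial intervals, which cover counting error only, and were compared by exact permutation over libraries (scipy 1.17.1). Named genes were the 10 (preparation) or 5 (other comparisons) largest changes per direction with at least 50 UMIs and no overlap, up to 4 called genes per list and direction, the 2 most abundant genes of each list and the 10 most abundant genes. Folr2, Colec12, Cd36, Emilin2 and, for the Lyve1 comparison, Cd209f, Cd209g, H2-DMa, H2-DMb1 and Ciita were also named, chosen after their values were seen. Scripts were tested on simulated data. Doublets were scored but kept, since the deposited matrices still hold them. DESeq2 1.42.0, other filters, gates and thinning were tried as alternatives. Clec7a was not analysed here, and some genes that meet the naming rule are not reported here. The members and all lists were chosen with earlier results of these data known.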

Additional observations from a re-analysis of the deposited data

Results flagged for a closer look

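For named genes, the CPM of all UMIs in the members was compared among the 4 cortical surface libraries, and 5 of 63 genes had 1 library far from the other 3, by Dixon's criterion at 95%, which by chance flags about 1 gene in 20. Ccr2, the monocyte chemokine receptor gene, was highest in cortical surface library 3 at 62.4 CPM, with the lowest library at 1.39 CPM. Slc40a1, the iron exporter gene, was highest in library 1 at 413 CPM, with the lowest at 217 CPM. Bcl2a1a, an anti-apoptotic gene, was highest in library 3 at 7.13 CPM (lowest 0), and Dusp2, a phosphatase gene, was highest in library 1 at 11.7 CPM (lowest 5.35). The chemokine gene Cxcl16 was lowest in library 4 at 53.5 CPM, with the highest at 59.6 CPM.

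The difference between gated macrophages with and without Lyve1 differed between the cortical surface and bone-associated library 2 for 3 genes by the edgeR interaction test, Cyr61 and Emilin2 among them. The difference of log2 fold changes was 12.24 for Cyr61, where the Lyve1-positive cells of bone-associated library 2 had 0 UMIs and 1 of the 41 cells without Lyve1 held all of its UMIs there, so that its size depends on the prior count. It was -5.98 for Emilin2. The spread came from the cortical surface libraries alone, since the other side is a single library. These values rest on the 17 Lyve1-positive cells of that library, and the cause was not tested.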

How the results depend on the processing

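The comparison between preparations rests on 1 bone-associated library with 17 cells. Both shares of cells were higher on the cortical surface under every alternative run. With barcodes holding a Ptprc UMI as denominator the difference in the share of members was 19.4 percentage points, in place of 10.4. In the comparison between preparations (4 genes higher on the cortical surface and 72 higher in the bone-associated cells), the counts were 7 and 136 with DESeq2, 19 and 136 with no detection filter, and 1 and 1 with cells thinned to 2000 UMIs. They were 129 and 264 with cortical surface libraries 1 and 2 only, and 197 and 408 with libraries 3 and 4 only. Requiring 2 Lyve1 UMIs gave 43 genes higher in the bone-associated cells, and requiring 5 of the 7 markers gave 7 higher on the cortical surface. Chosen after seeing the data, a fit of all 6 libraries gave 15 genes higher on the cortical surface, and macrophages with or without Lyve1 gave 61 and 282. Leaving out each cortical surface library in turn gave 2 to 9 and 45 to 110. The lowest counts came without library 1 (2 higher on the cortical surface) and library 2 (45 higher in the bone-associated cells), and the highest without library 4 (9) and library 3 (110). Of 33 named genes 17 kept their call in each of these fits. The fit without bone-associated library 2, and the gate with no microglia gene detected, could give no value. The replicate block over all 6 libraries gave 68 and 109. Differences of the 2 pairs with the same number correlated at 0.075 over 8607 genes. Since 1 of these pairs uses the 2 members of bone-associated library 1, this value does not settle whether the pairs share more than a number.

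In the comparison by Lyve1 detection (36 and 94), the counts were 143 and 276 with no fold limit, 9 and 46 with no library block, and 0 and 12 after thinning to 2000 UMIs. Cortical surface libraries 3 and 4 only, chosen after seeing the data, gave 113 higher with Lyve1. Leaving out each library gave 25 to 47 higher with Lyve1, and 23 of 31 named genes kept their call throughout. In the comparison with microglia (650 and 553), they were 1631 and 1461 with no fold limit and 341 and 344 after thinning. Leaving out each library gave 629 to 713 and 555 to 569. No named gene changed sign in any comparison. The interaction with preparation gave 2 genes with DESeq2 in place of 3. Except for thinning, whose construction leaves fewer counts, and the sets with fewer libraries, the cause of these changes was not tested.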
